A study of Mus musculus with 8 samples.

Results

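The transcripts of 10 mouse Toll-like receptor genes, Tlr1 to Tlr9 and Tlr13, were followed in sorted bone marrow cells after deletion of the nucleoporin gene Nup214. They were chosen by gene symbol from the 52097 genes of the deposited table, and each symbol had a single Ensembl identifier there. The knockout group held 3 libraries from Nup214fl/fl,Mx1-Cre mice, which carry loxP-flanked Nup214 alleles and a Cre recombinase driven by the interferon-inducible Mx1 promoter. The control group held 5 libraries from Nup214fl/fl mice, which carry the same floxed alleles without Cre. Both groups were collected at day 3 after pIpC (poly(I:C)), an artificial double-stranded RNA whose interferon response switches Mx1-Cre on. Mx1-Cre is active in many interferon-responsive cells and not in stem cells alone. The cells were sorted as haematopoietic stem cells (CD48-CD150+LSK, meaning lineage-negative, Sca-1-positive and Kit-positive). The labels do not say whether each library came from its own mouse, so every p-value below measures library-to-library spread, which may be technical in part.

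Toll-like receptors are transmembrane sensors of microbial molecules, with a leucine-rich ectodomain that binds the ligand and a cytoplasmic TIR domain that recruits the adaptors MyD88 or TRIF. TLR1, TLR2, TLR4, TLR5 and TLR6 work mainly at the cell surface on lipopeptides, lipopolysaccharide and flagellin, whereas TLR3, TLR7, TLR8, TLR9 and TLR13 sit in endosomes and sense nucleic acids. TLR3 is the endosomal receptor for double-stranded RNA such as pIpC, the agent both groups received. In bone marrow these receptors are best known from macrophages, monocytes, neutrophils and dendritic cells, and some are also present on stem and progenitor cells, where their ligands can drive myeloid differentiation.

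Levels are FPKM, fragments per transcript kilobase and per 1000000 mapped fragments, so they can be compared between genes of different length. Each library is scaled to its own mapped total. Transcripts of the mitochondrial genome took 37.8% to 43.3% of the summed FPKM in knockout libraries and 5.02% to 6.66% in control libraries. Depth, estimated from the steps between low values, in units of 1000000 fragments, was 16.1 to 22.7 in knockout libraries and 20.03 to 44.5 in control libraries. Nup214 itself was at 17.6, 9.66 and 18.2 FPKM in knockout libraries, against 43.2, 65.2, 48.5, 34.2 and 55.3 FPKM in control libraries. Its log2 difference as deposited was -1.66 ± 0.25 (SE, limma adjusted p = 0.000289), where the median over all genes tested was -0.81. Stem cell markers did not match the sort label equally in both groups. Of 14 stem cell markers tested, 10 were called lower and 1 higher in knockout libraries, where 59.5% of all genes tested were called lower. After the rescaling described below, 9 were called lower and 3 higher, where 21.4% of all genes were lower. Kit, which defines the gate, averaged 12.0 ± 10.3 FPKM in knockout and 137 ± 21.0 FPKM in control libraries (SD, n = 3 and 5). Ly6a, which encodes the gate's Sca-1, averaged 330.2 ± 56.0 FPKM in knockout and 329 ± 15.0 FPKM in control libraries, and was called higher by 0.83 on the log2 scale after that rescaling.

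The regions upstream of Tlr1, Tlr8 and Tlr13 are shown because every knockout library exceeded every control library for these genes. That of Tlr2, the partner of TLR1, is added, and its matches lie outside annotated exons. The Tlr6 matches given below also lie outside annotated exons, but that region is not shown. Sequences are from RefSeq (GRCm38.p6), which had an entry for 8 of the 10 genes and 10 start sites in all, and none for Tlr4 and Tlr7. Each is written 5′ to 3′ on the gene's strand, covers up to 250 bases before the start site and stops before the first annotated exon. Capitals mark matches to 1 of 2 motifs on either strand, GAAANNGAA, the core of the interferon-stimulated response element, and GGGANTTNC, an NF-kB motif.
Tlr8 (chrX:167264330-167264579, minus strand): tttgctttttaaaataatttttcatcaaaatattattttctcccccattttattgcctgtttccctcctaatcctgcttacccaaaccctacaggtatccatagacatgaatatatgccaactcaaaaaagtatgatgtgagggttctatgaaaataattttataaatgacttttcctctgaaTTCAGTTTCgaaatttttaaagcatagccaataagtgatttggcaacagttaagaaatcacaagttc
Tlr1 (chr5:64933564-64933808, minus strand): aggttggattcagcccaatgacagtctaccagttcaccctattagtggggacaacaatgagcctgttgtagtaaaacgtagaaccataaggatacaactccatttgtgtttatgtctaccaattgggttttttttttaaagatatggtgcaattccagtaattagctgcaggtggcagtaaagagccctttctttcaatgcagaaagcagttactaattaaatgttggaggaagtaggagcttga
Tlr13 (chrX:106143025-106143203, plus strand): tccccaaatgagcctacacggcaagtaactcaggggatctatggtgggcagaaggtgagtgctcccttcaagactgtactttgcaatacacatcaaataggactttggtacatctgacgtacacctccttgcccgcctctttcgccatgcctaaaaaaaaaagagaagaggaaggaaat
Tlr2 (chr3:83841768-83841858, minus strand): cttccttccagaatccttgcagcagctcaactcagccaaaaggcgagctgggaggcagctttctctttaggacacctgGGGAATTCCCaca
Tlr8 held 1 interferon-type match, on the opposite strand, with its first base at -67 from the start site. The window of 250 bases before and 50 after the start held no match of either motif in Tlr1 (2 start sites), Tlr5, Tlr9 or Tlr13. Tlr2 held 2 overlapping NF-kB matches, 1 on each strand, at -172 and -171. Tlr3 held 1 NF-kB match at -211. It lies outside the longest run before that start site that is free of annotated exons, -72 to -1. The first of 2 Tlr6 start sites held 2 overlapping interferon-type matches at -115 and -109. For comparison, 8.56% of 32851 mouse promoter windows of 300 bases held the interferon-type motif and 4.26% held the NF-kB motif. A match is a description of letters and not a binding site.

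Of the 10 receptor genes, 9 reached 1 FPKM in at least 3 libraries and were tested with all 15121 such genes. In knockout libraries 4 of the 9 were higher (Tlr1, Tlr8, Tlr13 and Tlr4), none was lower, and 5 were not called at an adjusted p of 0.05 (limma on log2(FPKM + 1), Benjamini-Hochberg over all genes tested). The background ran the other way, with 8.91% of all genes tested called higher and 59.5% called lower. The median log2 difference was 0.53 over the 9 receptors, which is the value of Tlr3, and -0.81 over all genes tested. The receptors' median was 1.29 without knockout replicate 1 and 0.22 without knockout replicate 2. Tlr5 was too low to be tested.

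**Figure D1:**
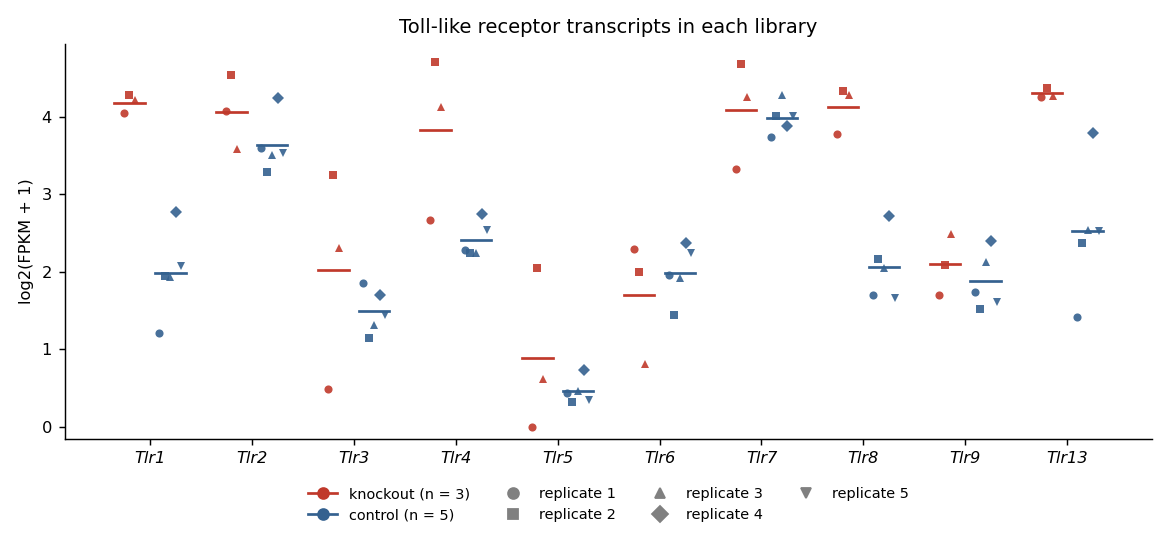
Level of each Toll-like receptor transcript, log2(FPKM + 1), in the 3 knockout libraries (red, left of each pair) and the 5 control libraries (blue, right). Points are libraries with a symbol for each replicate number, which does not pair samples, and bars are group means. All knockout points lie above all control points for Tlr1, Tlr8 and Tlr13, while Tlr3 and Tlr4 spread widely among the knockout libraries.

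Among the cell-surface receptors, Tlr1 showed the widest change. TLR1 pairs with TLR2 to recognise triacylated lipopeptides. Tlr1 was at 15.51, 18.40 and 17.59 FPKM in knockout libraries, against 1.31, 2.86, 2.82, 5.80 and 3.21 FPKM in control libraries. Every knockout library was above every control library, and the knockout libraries differed among themselves by only 1.19-fold. Means were 17.2 ± 1.49 FPKM in knockout and 3.20 ± 1.63 FPKM in control libraries (SD), and the log2 difference was 2.19 ± 0.30 (SE, limma adjusted p = 0.000168). Over all genes tested, 7.89% had every knockout library above every control library and 54.5% had every knockout library below.

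Tlr2, which encodes the shared partner of TLR1 and TLR6, was not called. It was at 15.77, 22.09 and 10.94 FPKM in knockout libraries, against 11.13, 8.72, 10.30, 17.93 and 10.57 FPKM in control libraries. The groups overlapped, since control replicate 4 exceeded 2 of the 3 knockout libraries. The log2 difference was 0.43 ± 0.26 (SE, limma adjusted p = 0.173). Mean levels of Tlr1 and Tlr2 were thus close in knockout libraries (17.2 and 16.3 FPKM), and Tlr1 was the lower of the pair in all 5 control libraries (3.20 and 11.7 FPKM).

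Tlr6, whose product pairs with TLR2 for diacylated lipopeptides, was at 3.92, 3.00 and 0.76 FPKM in knockout libraries, against 2.87, 1.72, 2.79, 4.15 and 3.73 FPKM in control libraries. The groups overlapped over most of their range, and the log2 difference was -0.28 ± 0.35 (SE, limma adjusted p = 0.495). Tlr1 and Tlr6 lie close together on chromosome 5 and share part of their coding sequence, so fragments from it could be counted for either gene. Of the 50-base words in their annotated transcripts, 454 were shared, which is 13.6% of those of Tlr1 and 12.3% of those of Tlr6, and no other pair of the 10 genes shared any. The longest identical run, 229 bases of coding sequence, is shown as a stretch in which the genes cannot be told apart (GENCODE M21 on GRCm38, minus strand, chr5:64925537-64925765 in Tlr1 and chr5:64953828-64954056 in Tlr6).
Shared run of Tlr1 and Tlr6: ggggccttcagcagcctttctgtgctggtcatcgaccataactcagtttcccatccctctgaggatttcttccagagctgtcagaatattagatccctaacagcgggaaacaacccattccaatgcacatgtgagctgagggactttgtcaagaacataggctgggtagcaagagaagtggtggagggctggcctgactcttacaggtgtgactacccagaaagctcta
This run holds only a part of the shared words, and the values of both genes are uncertain over all of them.

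Tlr4, which with MD-2 and CD14 senses lipopolysaccharide, was at 5.35, 24.99 and 16.42 FPKM in knockout libraries, against 3.86, 3.73, 3.73, 5.68 and 4.82 FPKM in control libraries. Knockout replicates 2 and 3 were far above the controls, while knockout replicate 1 lay within their range, below control replicate 4. The gene was called higher, with a log2 difference of 1.42 ± 0.39 (SE, limma adjusted p = 0.00869). The difference was 0.99 without knockout replicate 2 (adjusted p = 0.0366) and 2.00 without knockout replicate 1. Tlr4 showed the largest absolute spread of the 10 genes in the knockout group (15.6 ± 9.85 FPKM in knockout and 4.36 ± 0.866 FPKM in control libraries, SD).

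Tlr5, the flagellin receptor, was the lowest of the 10 in both groups. It was at 0, 3.13 and 0.53 FPKM in knockout libraries, against 0.36, 0.25, 0.38, 0.66 and 0.27 FPKM in control libraries. A single library, knockout replicate 2, exceeded 1 FPKM, at an estimated 271 fragments. An exact two-sided permutation test, which has 56 arrangements at these group sizes, gave p = 0.482.

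Among the endosomal receptors, Tlr8 and Tlr13 were called higher. Tlr8 encodes a receptor for single-stranded RNA and its breakdown products. It was at 12.73, 19.14 and 18.37 FPKM in knockout libraries, against 2.25, 3.47, 3.13, 5.57 and 2.17 FPKM in control libraries. The groups did not overlap and the lowest knockout library was at 2.29 times the highest control library. The log2 difference was 2.07 ± 0.27 (SE, limma adjusted p = 0.000122). Tlr13, in mice a receptor for bacterial ribosomal RNA, was at 18.12, 19.69 and 18.24 FPKM in knockout libraries, against 1.68, 4.17, 4.79, 12.78 and 4.78 FPKM in control libraries. The knockout libraries were nearly level, while the controls spread 7.61-fold, from replicate 1 at the bottom to replicate 4 at the top. The groups did not overlap, and the log2 difference was 1.77 ± 0.42 (SE, limma adjusted p = 0.00424).

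Tlr7, whose product senses single-stranded RNA and whose gene lies near Tlr8 on chromosome X, was not called. It was at 9.02, 24.65 and 17.98 FPKM in knockout libraries, against 12.31, 15.06, 18.34, 13.74 and 15.01 FPKM in control libraries. Knockout replicate 1 was below every control library and knockout replicate 2 above every one, and the log2 difference was 0.10 ± 0.28 (SE, limma adjusted p = 0.751). Without knockout replicate 1 it was 0.48, with an adjusted p of 0.0496. Tlr9, the receptor for unmethylated CpG DNA, was at 2.26, 3.26 and 4.60 FPKM in knockout libraries, against 2.34, 1.86, 3.37, 4.25 and 2.05 FPKM in control libraries. The groups overlapped across almost their whole range, with a log2 difference of 0.22 ± 0.27 (SE, limma adjusted p = 0.498).

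Tlr3, the receptor for the injected double-stranded RNA, was the least even of the tested genes in the knockout group. It was at 0.41, 8.53 and 3.95 FPKM in knockout libraries, against 2.63, 1.21, 1.48, 2.25 and 1.71 FPKM in control libraries. Knockout replicate 1 was below every control and knockout replicates 2 and 3 were above every control, a 20.8-fold range. The value of 0.41 FPKM still stood for an estimated 29 fragments over the longest transcript. The log2 difference was 0.53 ± 0.52 (SE, limma adjusted p = 0.384), and without knockout replicate 1 it was 1.29 (adjusted p = 0.00596). An antisense gene, Gm45542, overlaps 381 bases of Tlr3 exons, and without a stated strand setting its reads could not be told apart from those of Tlr3.

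In exact two-sided permutation tests, Tlr1, Tlr8 and Tlr13 each reached p = 0.0179, the smallest these group sizes allow, and Tlr4 had p = 0.0357. These are unadjusted values for single genes. The groups of Tlr1, Tlr8 and Tlr13 did not overlap, as reported above. Of all genes tested, 7.89% had all knockout libraries above all controls and 54.5% had all of them below. Tlr1, Tlr8 and Tlr13 were high and nearly even in all 3 knockout libraries, whereas Tlr4 was high in 2 of them.

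**Figure D2:**
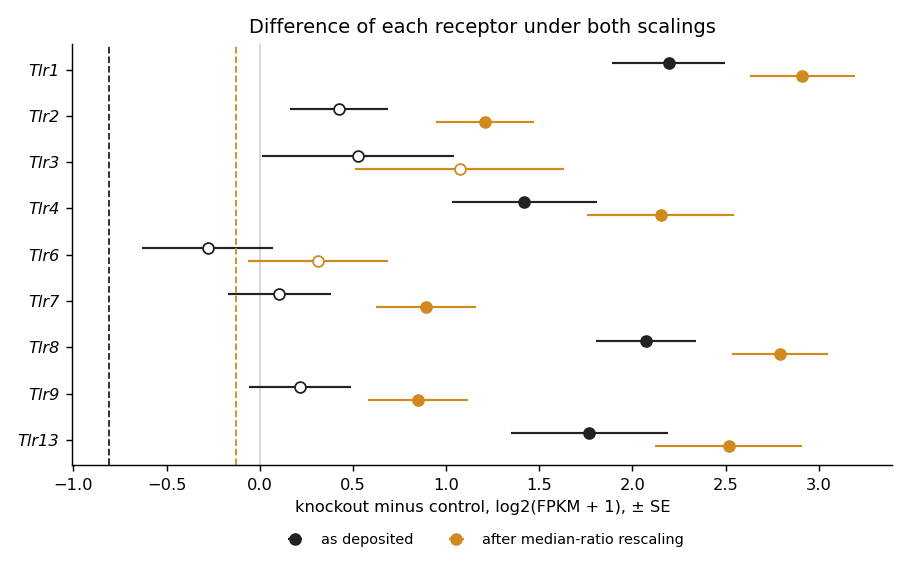
Log2 difference of knockout minus control (± SE) for the 9 tested receptor genes, as deposited (black) and after median-ratio rescaling (orange). Filled symbols passed an adjusted p of 0.05, and dashed lines mark the median of all genes tested under each scaling. All 9 points lie right of their dashed line, and Tlr6 changes side of 0.

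Because most genes were lower in the knockout libraries as deposited, the values were also rescaled by the median ratio of each library to the geometric mean over genes detected in all libraries. The rescaling moved the median of all genes by 0.68 on the log2 scale, to -0.13. The share of all calls that were higher moved to 43.5%, against 13.0% as deposited, with 16.5% of genes tested now called higher and 21.4% lower. Tlr1, Tlr4, Tlr8 and Tlr13 were called higher under both scalings. Tlr2 (1.21), Tlr7 (0.89) and Tlr9 (0.85) were called higher after rescaling and not as deposited, which gave 7 of 9 receptors higher and none lower, with a median of 1.21. Relative to the all-gene median, the receptors' median stood 1.33 higher as deposited and 1.34 higher after rescaling. The rescaling divides each library by a single factor and shifts most genes alike, so these near-equal gaps are no test of stability. As deposited the gap was 2.13 without knockout replicate 1 and 1.06 without knockout replicate 2. The gap also depended on the filter, at 0.42 with no filter and 2.61 with a minimum of 5 FPKM. The direction of Tlr6 depended on the scaling, at -0.28 as deposited and 0.31 after rescaling, and it was called under neither.

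The share of each gene in the summed FPKM of the 10 receptors does not depend on the scaling between libraries. The summed level was 83.1, 147 and 109 FPKM in knockout libraries, against 40.7, 43.1, 51.1, 72.8 and 48.3 FPKM in control libraries, so every knockout library exceeded every control library. Tlr1 made up 15.8% ± 3.08 of the sum in knockout and 5.997% ± 1.78 in control libraries (SD, n = 3 and 5). Tlr8 made up 15.0% ± 1.90 in knockout and 6.37% ± 1.48 in control libraries. Tlr7, the leading receptor of the controls, made up 14.7% ± 3.33 in knockout and 30.2% ± 6.78 in control libraries. Tlr2 made up 14.7% ± 4.5 in knockout and 22.8% ± 3.09 in control libraries, and Tlr9 3.05% ± 1.03 in knockout and 5.35% ± 1.03 in control libraries. For these 5 genes the groups did not overlap, with Tlr1 and Tlr8 taking a larger share and Tlr7, Tlr2 and Tlr9 a smaller one in knockout libraries. Shares add up to a fixed whole, so a larger share of some genes makes others smaller. The mean FPKM of Tlr7, Tlr2 and Tlr9 was not lower, at 1.16, 1.39 and 1.22 times the control mean. The shares of Tlr13, Tlr4, Tlr3, Tlr5 and Tlr6 overlapped. The split between surface and endosomal receptors overlapped between the groups, with surface receptors at 46.6% ± 3.76 in knockout and 44.2% ± 4.19 in control libraries.

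**Figure D3:**
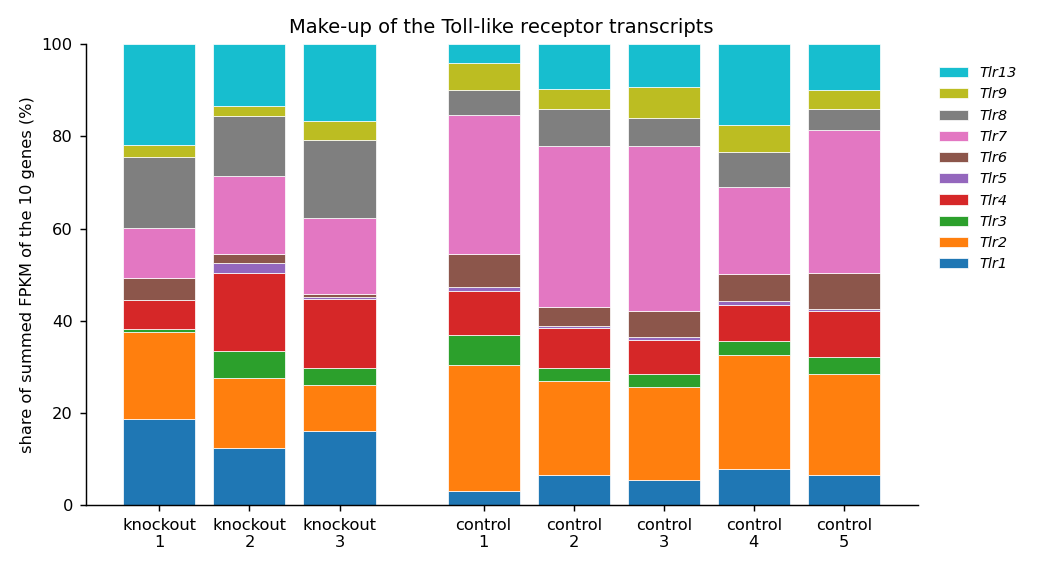
Share of each gene in the summed FPKM of the 10 Toll-like receptors, in percent, for the 3 knockout libraries (left) and the 5 control libraries (right). Tlr7 and Tlr2 take less of the knockout bars, and Tlr1 and Tlr8 take more.

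The order of mean levels in knockout libraries was Tlr13, Tlr7, Tlr1, Tlr8, Tlr2, Tlr4, Tlr3, Tlr9, Tlr6 and Tlr5. The first 6 of these lay between 15.6 and 18.7 FPKM, and no neighbours among them kept their order in all 3 libraries. The step from Tlr4 down to Tlr3 was the only one present in 3 of 3 knockout libraries. In control libraries the order was Tlr7, Tlr2, Tlr13, Tlr4, Tlr8, Tlr1, Tlr6, Tlr9, Tlr3 and Tlr5. There the steps from Tlr2 to Tlr13, from Tlr4 to Tlr8 and from Tlr3 to Tlr5 were present in 5 of 5 libraries, and the other neighbours changed places in at least 1.

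Markers of other cell types also differed between the groups and among the knockout libraries. The summed FPKM of 13 macrophage markers was 1904, 7668 and 4048 in knockout libraries, against 443 to 598 in control libraries, and 12 of the 13 were called higher. C1qb, a complement subunit made by tissue macrophages, was at 458, 1992 and 965 FPKM in knockout libraries, against 88.6 to 129 FPKM in control libraries. The order of the knockout libraries, lowest in replicate 1 and highest in replicate 2, was the same for the macrophage sum and for 7 of the 10 receptors (Tlr1, Tlr3, Tlr4, Tlr5, Tlr7, Tlr8 and Tlr13). The summed endothelial and stromal markers had this order too, as did 20.6% of all genes tested. Tlr2, Tlr6 and Tlr9 had other orders, as did the summed T and NK cell markers and the summed neutrophil and monocyte markers. Tlr1, Tlr8 and Tlr13 differed by 1.09-fold to 1.5-fold among the knockout libraries. Tlr13 was at 3.21, 3.49 and 3.23 times the control mean, where the macrophage sum was at 3.77, 15.2 and 8.02 times. Tlr4 was at 1.23, 5.73 and 3.76 times and Tlr3 at 0.221, 4.60 and 2.13 times. The part of these cells in the receptor levels was not tested. In bulk RNA, a change in the number of cells of a type and a change in RNA per cell cannot be told apart.

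**Figure D4:**
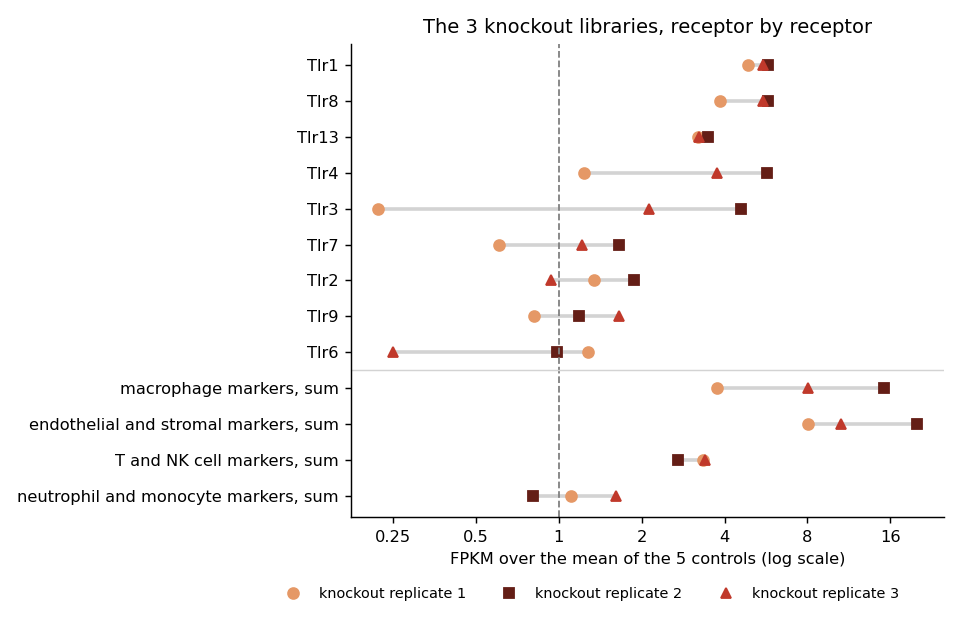
Level in each of the 3 knockout libraries divided by the mean of the 5 control libraries, on a log scale, for 9 receptor genes (above the line) and the summed markers of 4 other cell classes (below it). Tlr5 is left out because it is listed at 0 in knockout replicate 1. Tlr1, Tlr8 and Tlr13 lie close together in all 3 libraries, while Tlr4 and Tlr3 spread more widely. All of these and Tlr7 have the order of the macrophage and endothelial markers, as do 20.6% of all genes tested.

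Other marker lists differed as well. Among all genes tested, 8.91% were called higher and 59.5% lower as deposited, and 16.5% and 21.4% after rescaling. Of 11 T and NK cell markers, 10 were called higher, with a summed FPKM of 2118, 1716 and 2156 in knockout libraries, against 289 to 774 in control libraries. Of 10 endothelial and stromal markers tested, 7 were called higher and 1 lower, and their sum was 247, 616 and 325 FPKM in knockout libraries, against 29.3 to 32.1 FPKM in control libraries. With any 1 knockout library left out, 6 of these were tested and 3 or 4 were called higher. The others had reached 1 FPKM only in the 3 knockout libraries. They passed the filter because they were high there, so their calls add no support. Of 14 neutrophil and monocyte markers, none was called higher and 1 was called lower, with sums of 4672 to 9302 FPKM in knockout libraries and 3284 to 9562 FPKM in control libraries. For this list, 3 were called higher after rescaling and 3 without knockout replicate 2. Of 9 dendritic cell markers tested, 1 was called higher and 4 lower, and of 5 B lymphocyte markers tested, none was called higher and 1 was called lower. These low counts rest on the scaling, since after rescaling 4 dendritic cell markers were called higher and 2 lower, and 2 B lymphocyte markers were called higher and 0 lower. None of the markers in these lists was listed at 0 throughout a group, and their part in the receptor levels was not tested. Among the controls, replicate 4 was the highest library for 8 of the 10 receptors. The share of all genes tested for which this held was not computed. Replicate 4 also had the highest sums of the controls for the macrophage list (598 FPKM) and the neutrophil and monocyte list (9562 FPKM). Of the macrophage markers, Cd68 (167 FPKM), Csf1r (103 FPKM), Adgre1 (19.7 FPKM) and Cd5l (2.69 FPKM) were highest there among the controls. Spic (6.24 FPKM) and Siglec1 (0.74 FPKM) were lowest there, and the other macrophage markers lay in between. Most of that neutrophil and monocyte sum came from the monocyte and macrophage genes Lyz2 (5349 FPKM) and Ly6c2 (3199 FPKM). The neutrophil genes of the list did not move alike in control replicate 4. Ly6g (0 FPKM), Ltf (2.08 FPKM), Retnlg (1.89 FPKM), Mmp9 (0.69 FPKM) and S100a9 (224 FPKM) were at their lowest among the controls there. S100a8 (455 FPKM), Camp (35.9 FPKM), Ngp (51.2 FPKM), Mmp8 (12.4 FPKM) and Csf3r (63.2 FPKM) were not. Cxcr2 (4.01 FPKM) was at its highest among the controls.

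The genes most like each receptor were ranked by the root-mean-square difference of log2(FPKM + 1) across the 8 libraries, each gene centred on its own mean, over 12287 genes. All points of a gene share these libraries and their depth, so the ranking describes likeness only. Tlr1 was closest to Ifi207 (0.20) and Fcgr4 (0.21), Tlr8 to A4galt (0.16) and Pilrb2 (0.21), and Tlr13 to Slfn2 (0.17) and Itga1 (0.28). Tlr4 was closest to Lipa (0.17) and Trf (0.19), and Tlr3 to Itgb5 (0.21) and Tmem88 (0.23). Among the receptors themselves, Tlr1 and Tlr8 were the closest pair (0.26), followed by Tlr1 and Tlr13 (0.30) and by Tlr7 and Tlr9 (0.39).

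Genes for proteins that present ligands to the receptors moved in both directions. Of 7 co-receptors and ligand carriers, 4 were called higher and 2 lower, with a median log2 difference of 0.95. Over all genes tested, 8.91% were called higher and 59.5% lower. Cd36, a scavenger receptor that assists TLR2 with TLR6, was at 27.7, 97.7 and 66.0 FPKM in knockout libraries, against 0.97, 2.48, 1.16, 3.25 and 3.83 FPKM in control libraries, a log2 difference of 4.196 ± 0.43 (SE, limma adjusted p = 3.96e-05). Msr1, another scavenger receptor, was higher by 2.44 ± 0.52 (SE, limma adjusted p = 0.00256). The TLR4 partners Cd14 and Ly96, which encodes MD-2, were higher by 1.39 ± 0.37 and 0.95 ± 0.32 (SE, limma adjusted p = 0.00713 and 0.0240). As for Tlr4, knockout and control libraries overlapped for both, and knockout replicate 2 was the highest library. Ly96 lost its call without knockout replicate 2 (0.64, adjusted p = 0.107) and without knockout replicate 3 (0.86, adjusted p = 0.0840). Lbp, the lipopolysaccharide-binding protein that passes ligand to CD14, moved the other way and was at 3.62, 9.92 and 5.51 FPKM in knockout libraries, against 36.8, 35.9, 33.3, 42.1 and 32.7 FPKM in control libraries (log2 difference -2.42 ± 0.25, SE, limma adjusted p = 3.21e-05).

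Of 8 folding and trafficking factors, 1 was called higher and 4 lower, with a median of -0.56 as deposited and 0.25 after rescaling. The 50% called lower was near the 59.5% of all genes tested. Unc93b1, which escorts nucleic-acid-sensing receptors to endosomes, averaged 169 ± 76.4 FPKM in knockout and 217 ± 75.8 FPKM in control libraries and was not called (log2 difference -0.39 as deposited, limma adjusted p = 0.311, and 0.44 after rescaling). The chaperone gene Cnpy3 and its relative Cnpy4 were lower, with log2 differences of -1.54 ± 0.21 and -2.26 ± 0.22 (SE, limma adjusted p = 0.000172 and 2.67e-05). Lgmn, which encodes the endosomal protease legumain, was at 164, 583 and 308 FPKM in knockout libraries, against 34.0 to 53.1 FPKM in control libraries (log2 difference 2.82 ± 0.35, SE, limma adjusted p = 0.000108). Its order among the knockout libraries was that of the summed macrophage markers and of the summed endothelial and stromal markers. Of all genes tested, 20.6% had this order.

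For the adaptors, inhibitors, interferon regulatory factors and cytoplasmic sensors, the list medians were below 0 as deposited and above 0 after rescaling, so their direction rests on the scaling. Of 19 adaptors and kinases, none was called higher and 11 were called lower as deposited (median -0.59), and 3 were higher and 2 lower after rescaling (median 0.21). The 57.9% called lower as deposited was near the 59.5% of all genes tested. After rescaling, 16.5% of all genes were called higher and 21.4% lower. Myd88, the adaptor of most of these receptors, was at 27.3, 32.0 and 32.2 FPKM in knockout libraries, against 40.5, 38.5, 47.6, 58.8 and 43.4 FPKM in control libraries. Its log2 difference was -0.56 ± 0.16 (SE, limma adjusted p = 0.0106) as deposited and 0.26 after rescaling. Ticam2, the bridging adaptor of TLR4, was called lower under both scalings, with 2.66, 2.89 and 2.43 FPKM in knockout libraries, against 8.74, 11.4, 12.8, 17.4 and 11.2 FPKM in control libraries (log2 difference -1.83 ± 0.22, SE, limma adjusted p = 7.03e-05). Ticam1, which encodes the TLR3 adaptor TRIF, was not called, at -0.43 ± 0.19 (SE, limma adjusted p = 0.0712), or 0.28 after rescaling.

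Of 8 inhibitors tested, 2 were called higher and 4 lower (median -0.58, and 0.23 after rescaling). That is 25% higher and 50% lower, against 8.91% and 59.5% of all genes tested. Il1rl1, which encodes the IL-33 receptor ST2, was higher by 1.74 ± 0.34 (SE, limma adjusted p = 0.00121), and Sigirr, which encodes an inhibitory member of the same receptor family, was lower, with a log2 difference of -1.95 ± 0.35 (SE, limma adjusted p = 0.000853), though not called after quantile normalization (-1.06). Of 5 interferon regulatory factors, 1 was called higher and 3 lower (median -0.39, and 0.44 after rescaling). Their 60% called lower was near the all-gene share. Irf7, the factor through which endosomal receptors induce type I interferon in dendritic cells, was at 104, 198 and 119 FPKM in knockout libraries, against 48.7, 52.0, 61.0, 69.5 and 56.6 FPKM in control libraries (log2 difference 1.22 ± 0.21, SE, limma adjusted p = 0.000669).

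Sensors of nucleic acid in the cytoplasm had a direction that rests on the scaling. Of 15 such genes, 1 was called higher and 7 lower (median -0.43, and 0.37 after rescaling, when 5 were called higher and 2 lower). Among all genes tested, 8.91% were called higher and 59.5% lower as deposited, and 16.5% and 21.4% after rescaling. Ifih1, which encodes MDA5, the cytoplasmic sensor of pIpC, was at 7.34, 12.1 and 11.9 FPKM in knockout libraries, against 15.6, 13.0, 11.6, 13.0 and 13.1 FPKM in control libraries, and was not called (-0.34 ± 0.19, SE, limma adjusted p = 0.137, and 0.43 after rescaling). Sting1, the adaptor of cytoplasmic DNA sensing, was at 47.6, 32.5 and 55.9 FPKM in knockout libraries, against 192, 159, 193, 157 and 184 FPKM in control libraries (log2 difference -1.97 ± 0.18, SE, limma adjusted p = 1.87e-05).

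Of 12 inducible targets of the receptors that were tested, 6 were called higher and 2 lower, with a median of 0.67 as deposited and 1.21 after rescaling. Among all genes tested, 8.91% were called higher and 59.5% lower as deposited. Ccl5, a chemokine that T and NK cells also make in quantity, was at 4317, 2945 and 3940 FPKM in knockout libraries, against 343, 835, 1294, 665 and 963 FPKM in control libraries (log2 difference 2.30 ± 0.38, SE, limma adjusted p = 0.000565). Ccl2, a monocyte-attracting chemokine, was higher by 1.99 ± 0.30 (SE, limma adjusted p = 0.000274). Ccl3, another chemokine, was lower, at 30.5, 10.1 and 32.8 FPKM in knockout libraries, against 186, 134, 164, 80.7 and 167 FPKM in control libraries (log2 difference -2.63 ± 0.40, SE, limma adjusted p = 0.000374). The counts moved with the libraries used, to 5 higher and 4 lower without control replicate 4 and to 7 higher and 1 lower without knockout replicate 2. After rescaling they were 7 higher and 1 lower.

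**Figure D5:**
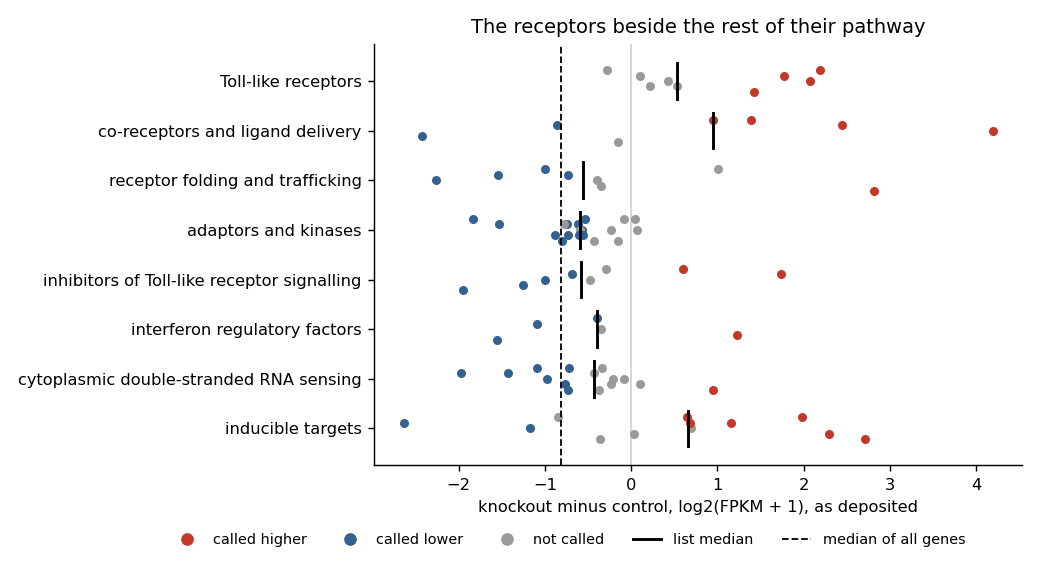
Log2 difference of knockout minus control as deposited, for the tested genes of the receptor list and 7 lists of the same pathway. Red points were called higher, blue points lower and grey points neither, short bars are list medians and the dashed line is the median of all genes tested (-0.81). The receptors, the co-receptors and the inducible targets have medians above 0, and the other 5 lists have medians below 0.

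The other mouse members of the family were Tlr11 and Tlr12, endosomal receptors for protozoan profilin. Tlr11 was too low to be tested, with 0, 0.18 and 1.59 FPKM in knockout libraries, against 0.15 to 0.40 FPKM in control libraries. Tlr12 was at 4.79, 5.90 and 6.85 FPKM in knockout libraries, against 3.38, 4.04, 6.70, 5.84 and 5.76 FPKM in control libraries, and was not called as deposited (0.18 ± 0.23, SE, limma adjusted p = 0.519). After rescaling it was called higher, at 0.89.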

How the data were processed

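RNA from sorted bone marrow cells was extracted, reverse-transcribed and amplified by Geo-seq and made into libraries with a transposase kit, per the labels' protocols. The authors deposited FPKM for 52097 Ensembl genes in 8 libraries and no counts. Per the submitters' processing notes, the tools were HTSeq, DESeq2, Cufflinks 2.1.1 and Bowtie 0.12.9 and the build mm10, with no roles given; the strand setting is not given in the sources used here. Symbols and coordinates came from GENCODE M21 (GRCm38). Groups came from the genotype labels.

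The comparison used limma 3.58.1 (R 4.3.3; trend, robust) on log2(FPKM + 1), for the 15121 genes that reached 1 FPKM in 3 or more libraries, with Benjamini-Hochberg adjustment at 0.05. This scale understates changes of low genes. The model was tested on simulated data. Nuclear copies of mitochondrial genes, needed for 1 alternative scaling, were found with BLAST+ 2.17.0.

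Depth was estimated from the spacing of low FPKM values. Fragment numbers use the longest transcript and cover counting only. Other scalings, filters, pseudocounts, a replicate block and leaving out each library were tried. The members, lists and tests were chosen with earlier results of these data known. Named genes were all members, all genes of pathway lists of up to 8 genes, the 3 with the smallest p of longer pathway lists, the 3 most abundant of each marker list, and the 2 tested genes nearest to each member. Myd88, Ticam1, Ifih1, Ly6g, Ltf, Retnlg, Mmp9 and Gm45542 were added after their values were seen. So were S100a9, Camp, Ngp, Mmp8, Csf3r, Cxcr2, Cd68, Csf1r, Adgre1, Cd5l, Spic and Siglec1.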

Additional observations from a re-analysis of the deposited data

Results flagged for a closer look

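Control replicate 4 stood apart from the other controls for 2 receptor genes. Its Tlr2 level was 17.93 FPKM, and the gap to the next control was 0.738 of the whole range of the 5 controls. Its Tlr13 level was 12.78 FPKM, with a gap of 0.72 of the range. Both exceed the 5-sample limit of 0.71 (Dixon's 95% critical value). The controls of 10 genes were looked at, and chance exceeds the limit in about 1 of 20 groups. Without control replicate 4, the log2 difference between knockout and control was 0.58 for Tlr2 and 2.08 for Tlr13.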

How the results depend on the processing

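Tlr1, Tlr4, Tlr8 and Tlr13 were called higher in all 17 fits run. Their log2 differences ranged over 2.00 to 2.93, 0.99 to 2.15, 1.97 to 2.82 and 1.49 to 2.56, and no receptor was called lower in any fit. The number of receptors called higher was 7 after median-ratio rescaling and 7 after rescaling to the non-mitochondrial total, against 4 as deposited. It was 6 after quantile normalization, and 4 to 6 when 1 library was left out. The 6 arose without knockout replicate 1, where Tlr3 and Tlr7 were added. Over all genes, 1348 were called higher and 8997 lower as deposited, 2491 and 3233 after median-ratio rescaling, 2530 and 3079 after quantile normalization, and 2310 and 3413 after rescaling to the non-mitochondrial total. Without a filter 3561 genes were called higher, and with a minimum of 5 FPKM 619, where fewer genes were tested. Leaving out 1 library gave 847 to 1351 higher, with 847 without knockout replicate 2 and 860 without knockout replicate 3.

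Of 151 tested genes in the pathway and marker lists, 37 changed sign from the deposited values under all 3 of the other scalings and 40 under at least 1. Among the named genes, those also called under at least 1 of the scalings compared were as follows. In the order median-ratio, quantile and non-mitochondrial, the log2 differences were 0.06, 0.13 and 0.02 for Slc15a4, 0.26, 0.34 and 0.22 for Myd88, 0.05, 0.13 and 0.01 for Irak4, 0.44, 0.53 and 0.40 for Irf1, 0.83, 0.79 and 0.79 for Ly6a, and 0.10, 0.18 and 0.05 for Cd79b. For Hsp90b1 it was 0.54 after quantile normalization. The cause of these changes was not tested.

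Replicate numbers are shared by the groups. The deviations of same-numbered libraries from their group means correlated at -0.035, 0.028 and -0.043, so the numbers are not taken to pair samples. With a replicate block, 4 receptors were called higher, and over all genes 1232 were called higher and 7607 lower.

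With 3 knockout libraries, a single library decides whether Tlr3 and Tlr7 are called, and fragment numbers limit Tlr5 and the lowest Tlr3 value. Purity of the sorted cells was not measured here.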
